A study of Mus musculus with 18 samples.

Results

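Neurofilaments are the intermediate filaments of neurons, and the 5 genes that encode their subunits in mouse are Nefl (light chain), Nefm (medium chain), Nefh (heavy chain), Ina (alpha-internexin) and Prph (peripherin). They were taken by name, 5 of 28563 genes with counts, and the group was chosen by a measured difference, since Nefl and Nefm stood higher in DKO than in WT in the comparison described first below. The 18 polyA RNA-seq libraries were made from mouse heart ventricles at E14.5 (the embryonic stage) and cover 5 genotypes. WT had 3 libraries, Irx3KO (labelled knockout for Irx3) had 3, Irx4KO (labelled knockout for Irx4) had 3 and the double heterozygotes, labelled Irx3het_Irx4het and called dHet here, had 3. The libraries labelled Irx3KO_Irx4KO, called DKO here, numbered 6. Irx3 and Irx4 encode Iroquois homeobox transcription factors of the ventricle wall. Strain, embryo sex and the structure of the mutant alleles are not given in the labels. The labels do not say that the libraries of a group came from separate embryos, so each p-value reflects only how these libraries vary, which may be technical.

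In a mature axon Nefl, Nefm and Nefh co-assemble with Ina or Prph into filaments that set the calibre of the axon and are moved along it by kinesins. Each subunit has a central alpha-helical rod and, in Nefm and Nefh, a long phosphorylated tail. During development Ina and Nefm are generally made before Nefh, and Prph marks peripheral neurons, including the autonomic and sensory nerves that reach the heart. Muscle cells are known instead for desmin (Des), and most other cells of the heart for vimentin (Vim).

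The counts of these genes are not fully separable, and a short stretch of coding sequence shows why. It is taken from GENCODE M21 transcripts (GRCm38), and positions are counted from the first base of the transcript. Nefl (plus strand) and Nefm (minus strand) lie beside each other on chromosome 14 with 0 protein-coding genes between them. Nefh is on chromosome 11, Prph on chromosome 15 and Ina on chromosome 19. Nefm has 2 transcripts, and their first 1232 bases are the same. They part after exon 2. Past that junction Nefm-201 continues through the end of the rod into the tail (2544 coding bases in all), whereas Nefm-202 has 1410 coding bases. The last exon of Nefm-202 lies over Nefl on the opposite strand for 1108 bases, and 1078 runs of 31 bases, the usual matching length of the counting tool, are shared by the pair on opposite strands. The edge of this overlap is shown next, with the shared bases in capitals, at nucleotides 1064 to 1123 of Nefl-201 and 1285 to 1344 of Nefm-202:
Nefl-201: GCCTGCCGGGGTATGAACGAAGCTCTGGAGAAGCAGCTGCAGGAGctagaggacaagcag
Nefm-202: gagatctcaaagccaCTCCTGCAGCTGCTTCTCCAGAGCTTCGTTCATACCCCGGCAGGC

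The library kit marks strand, but whether the counting used strand is not given in the sources used here. Reads from this stretch therefore cannot be assigned with certainty to Nefl or to Nefm-202. Nefm and Prph share 5 runs of 31 bases on the same strand. Outside such stretches the genes are distinct. Pairwise identity over the aligned coding sequence ran from 53.5% (Nefm with Nefh) to 60.9% (Nefm with Ina), and no other pair of different genes shared a run of 31 bases in either orientation.

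Libraries held 26721576 to 45946741 estimated counts, the lowest in dHet 4. The libraries fall into 2 sets that differ technically: WT with DKO 5, 7 and 10 (set 1, 6 libraries) and the other 12 (set 2). The Spearman correlation across 11252 genes of a library's deviation with transcript length was -0.581 to -0.353 in set 1 and 0.061 to 0.575 in set 2. Genotypes were therefore compared only within a set, WT with DKO in set 1, and DKO 2, 3 and 4, Irx3KO, Irx4KO and dHet with each other in set 2. Of the targeted genes, Irx3 was at 24.9 ± 3.28 CPM (counts per 1000000 counts of the library, as mean ± SD, n = 3) in WT of set 1. In DKO of set 1 it averaged 3.77 CPM. In set 2 Irx3 was at 24.9 ± 2.39 CPM in Irx4KO and 13.1 ± 0.257 CPM in dHet. It averaged 3.66 CPM in DKO and 2.83 CPM in Irx3KO of that set. Irx4 did not check its label: it averaged 253 CPM in DKO of set 1 against 95.6 CPM in WT, and 229 CPM in DKO and 225 CPM in Irx4KO of set 2 against 145 CPM in Irx3KO and 185 CPM in dHet. Irx4KO and DKO below stand for libraries so labelled, and every direction tied to Irx4 rests on those labels. The ventricular light chain Myl2 averaged 4500 CPM, while Y-linked transcripts were near 0 in WT 3, DKO 4 and dHet 2 only.

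All 5 genes were scarce in the ventricle. On the per-length scale of TPM (transcripts per 1000000 transcripts), which allows genes to be compared, Nefl averaged 1.66 TPM in WT and 3.72 TPM in DKO of set 1, and Nefm 0.671 and 3.18 TPM. Prph followed at 0.424 and 0.626 TPM, Nefh at 0.257 and 0.0973 TPM and Ina at 0.0249 and 0.0133 TPM. Of the 5, 4 passed the filter on low counts. Ina did not, with 0 to 7 counts per library and 5 libraries at 0, so its level was not detectable with any precision at this depth, where 3 counts correspond to 0.0703 to 0.12 CPM. Nefl and Nefm together made up 80.3% to 95.1% of the CPM of the 5 genes in each library.

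**Figure D1:**
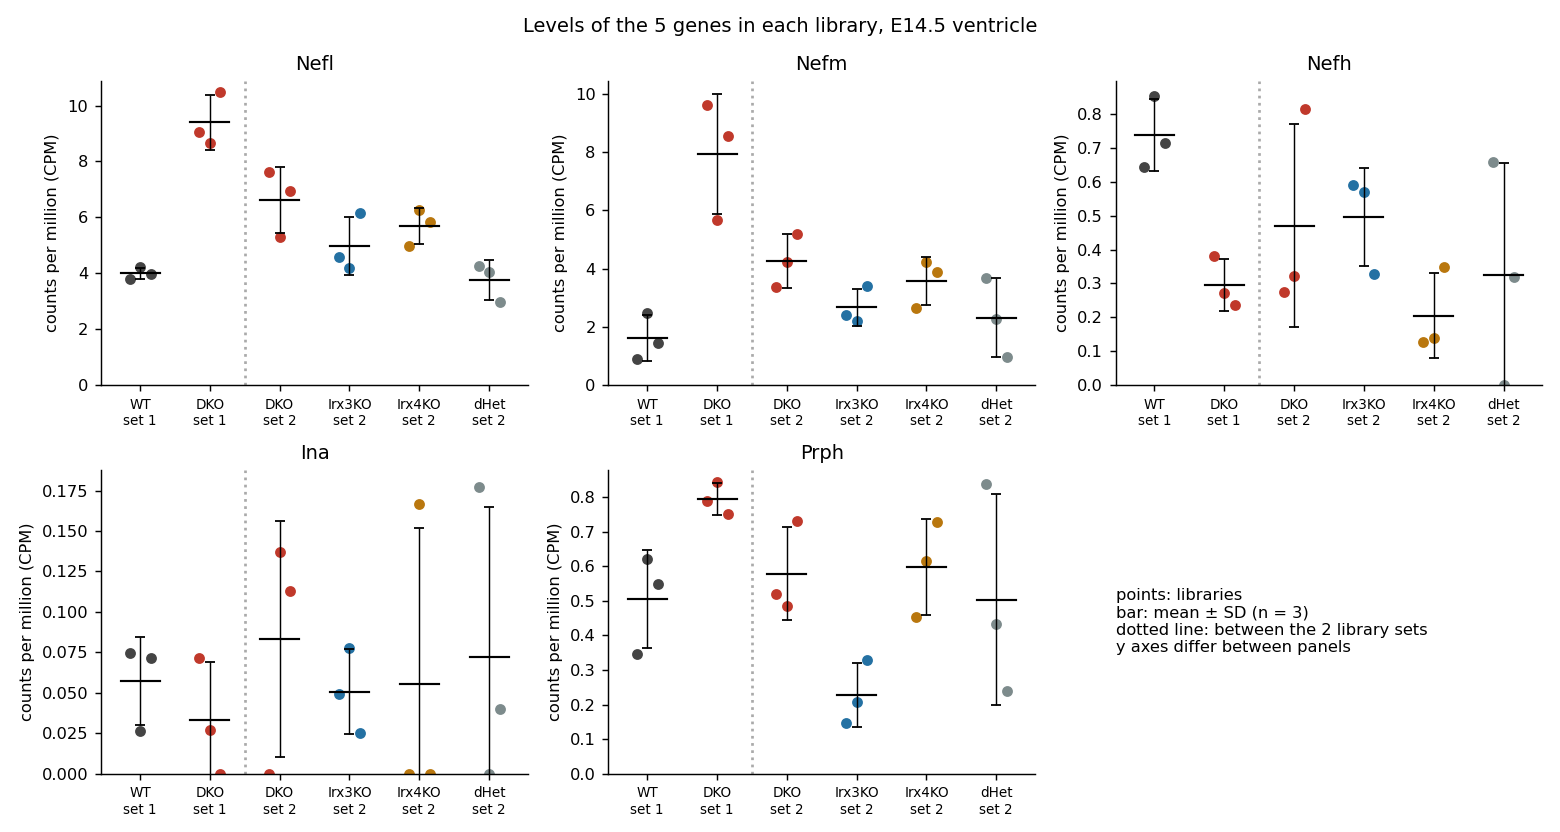
Level of each of the 5 genes in CPM (y axis, a different scale in each panel) for each of the 18 libraries (points), by genotype and library set (x axis), with the mean and SD of 3 libraries and axes that start at 0. In set 1 the DKO libraries lie above WT for Nefl, Nefm and Prph and below WT for Nefh, while Ina stays at or under 0.177 CPM everywhere.

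The comparison of DKO with WT asks what differs when both genes are mutant. It is the contrast that brought these genes forward, so its values are a description and carry no test here. Nefl, the chain that every neurofilament needs, was at 3.79, 4.21 and 3.98 CPM in WT 1, 2 and 3 and at 9.05, 8.65 and 10.5 CPM in DKO 5, 7 and 10. The WT libraries lay close together and every DKO library was above all of them. The log2 difference was 1.24 ± 0.18 (SE), a ratio of 2.36. Nefm, the medium chain, was at 0.901, 2.48 and 1.46 CPM in WT and 9.6, 5.65 and 8.55 CPM in DKO. Its WT libraries were spread over a wider range than those of Nefl, and the lowest DKO library was still above the highest WT library. The log2 difference was 2.30 ± 0.41, a ratio of 4.92, from 36 to 96 estimated counts in WT and 207 to 401 in DKO. Nefm was thus at 0.238 to 0.589 of the Nefl level in CPM in WT and at 0.653 to 1.06 in DKO.

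Of the remaining chains, Nefh was lower and Prph higher in DKO. Nefh, the heavy chain, was at 0.645, 0.855 and 0.716 CPM in WT and at 0.382, 0.272 and 0.235 CPM in DKO, lower in every DKO library (log2 difference -1.31 ± 0.68). Prph was at 0.347, 0.622 and 0.549 CPM in WT and 0.789, 0.844 and 0.75 CPM in DKO, higher in every DKO library (0.65 ± 0.38). Ina was at 3, 1 and 3 counts in WT and 3, 1 and 0 counts in DKO. In the fit of all genes 2 of the 4 that passed the filter, Nefl and Nefm, were among those called at an adjusted p under 0.05, a share of all 16607 genes tested of 1.44%, and 0.644% for genes called higher. Groups that do not overlap were found for 7.97% of all genes in the higher direction and 7.05% in the lower. Since these values chose the genes, nothing is read from the counts. Nefm was not among the genes called without WT 1 (log2 difference 2.01), without WT 3 (2.23), or when the 6 libraries of set 1 were fitted alone, where it was also higher in DKO.

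**Figure D2:**
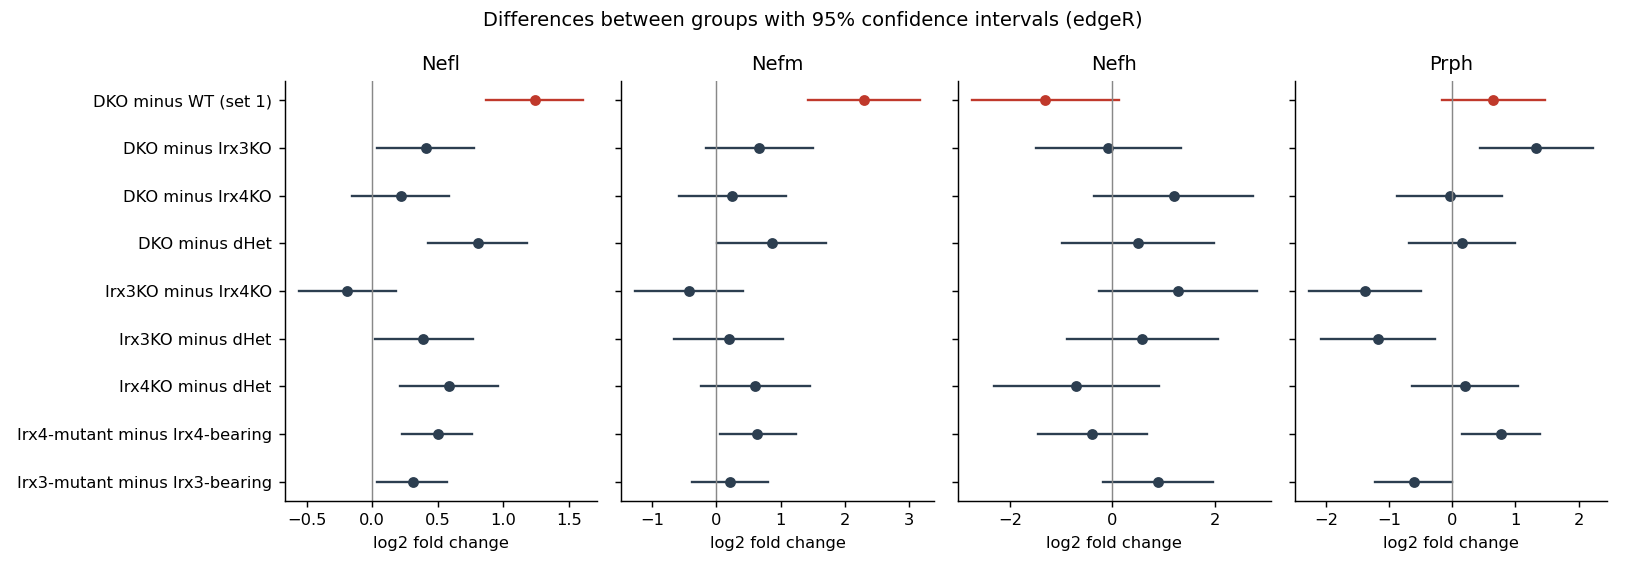
Log2 fold change (x axis, a different scale in each panel) of the 4 genes that passed the filter in each of 9 comparisons (y axis), as points with 95% confidence intervals, with the contrast that brought the genes forward in red. Nefl lies at 1.24 in DKO minus WT and between -0.19 and 0.81 in the 8 comparisons of set 2.

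Among the 12 libraries of set 2, which had no part in that contrast, the order of the Nefl group means was DKO, Irx4KO, Irx3KO and dHet. Nefl was at 7.61, 5.3 and 6.96 CPM in DKO 2, 3 and 4 and at 4.97, 6.25 and 5.83 CPM in Irx4KO 2, 3 and 4. It was at 4.57, 4.19 and 6.17 CPM in Irx3KO 1, 2 and 4 and at 4.27, 4.05 and 2.96 CPM in dHet 2, 3 and 4. Each neighbour in this order overlapped with the next, while DKO and Irx4KO each lay wholly above dHet. No member passed the test in any of the 8 comparisons of set 2. The DKO comparisons in that set share the libraries DKO 2, 3 and 4.

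DKO was compared with dHet, the group with 1 labelled mutant allele of each gene. Nefl was 0.81 ± 0.18 higher on the log2 scale in DKO (95% interval 0.43 to 1.18), with all DKO libraries above all dHet libraries, but its adjusted p over all genes was 0.12 with edgeR. In that comparison 0.0903% of genes were called and 8.11% had no overlap in the higher direction. DESeq2 gave 0.79 with an adjusted p of 0.0071, so whether Nefl is called depends on the tool, and the adjusted p was as high as 0.35 without DKO 4. Nefm was at 3.36, 4.21 and 5.2 CPM in DKO and 3.68, 2.27 and 0.965 CPM in dHet, which overlapped. The Nefm difference was 0.86 ± 0.40 (0.01 to 1.71, adjusted p = 0.50), and it was 0.52 without dHet 4, the library of lowest depth, 1.36 without dHet 2 and 1.38 without a set term. The intervals for Nefh (-0.98 to 1.99) and Prph (-0.68 to 1.00) included no difference.

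DKO was set against Irx3KO and against Irx4KO to ask what the second labelled mutation adds. Against Irx3KO, where 0.379% of genes were called, Nefl was 0.41 ± 0.18 higher (0.04 to 0.78, adjusted p = 0.54). Nefm was at 2.41, 2.21 and 3.4 CPM in Irx3KO, and its difference was 0.67 ± 0.39 (-0.16 to 1.51, adjusted p = 0.75). Against Irx4KO, where 0.0241% of genes were called, the Nefl difference was 0.22 ± 0.18 (-0.15 to 0.59, adjusted p = 0.93). Nefm was at 2.65, 4.22 and 3.88 CPM in Irx4KO, and its difference was 0.25 ± 0.39 (-0.58 to 1.08, adjusted p = 0.98), with 0.07 to 0.39 when a library was left out. Both genes had some libraries of one group within the range of the other in each of these comparisons.

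Between the other groups of set 2 the same 2 genes differed by less than the test could call. Irx4KO less dHet gave 0.59 ± 0.18 for Nefl (0.21 to 0.96, adjusted p = 0.57), with all Irx4KO libraries above all dHet libraries, and 0.61 ± 0.40 for Nefm (adjusted p = 1). In that comparison 0.012% of genes were called and 7.29% had no overlap in the higher direction. Irx3KO less dHet, with 0.00602% of genes called, gave 0.39 ± 0.18 and 0.19 ± 0.40 (adjusted p = 1 for both). Irx3KO less Irx4KO, with 0.289% called, gave -0.19 ± 0.18 and -0.42 ± 0.39 (adjusted p = 0.89 and 0.90).

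The 12 libraries were also pooled by label. The 6 libraries labelled with homozygous Irx4 mutation (DKO and Irx4KO) averaged 6.15 CPM of Nefl and the 6 others 4.37 CPM. The libraries of the pools overlapped, with a difference of 0.50 ± 0.13 (0.23 to 0.76, edgeR adjusted p = 0.081 where 0.813% of genes were called). It passed without DKO 3 (0.57, adjusted p = 0.048) and with DESeq2 (0.49, adjusted p = 0.015). Nefm averaged 3.92 and 2.49 CPM, a difference of 0.64 ± 0.28 (0.05 to 1.24, adjusted p = 0.42). Each single value was also put to an exact two-sided permutation test over the 924 splits, among 10 such tests made. Its p was 0.013 for Nefl and 0.019 for Nefm. After Benjamini-Hochberg adjustment over the 10 tests it was 0.095 for both, with no allowance for the choice of the genes. The splits ran over all 12 libraries without regard to the other label, so the genotypes were treated as interchangeable. Pooled by homozygous Irx3 label (DKO and Irx3KO against Irx4KO and dHet, 0.0241% of genes called), Nefl differed by 0.31 ± 0.13 (adjusted p = 0.64) and Nefm by 0.22 ± 0.28 (adjusted p = 0.90), and the exact permutation p was 0.18 and 0.46.

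Prph, the peripheral neuron subunit, had its lowest levels in Irx3KO. It was at 0.148, 0.207 and 0.328 CPM there, 0.521, 0.484 and 0.732 CPM in DKO, 0.453, 0.614 and 0.727 CPM in Irx4KO and 0.837, 0.434 and 0.24 CPM in dHet. Irx3KO lay below all libraries of DKO and of Irx4KO and overlapped with dHet. DKO was 1.33 ± 0.42 higher than Irx3KO (0.44 to 2.23, adjusted p = 0.29), where 9.01% of genes had no overlap in that direction. Irx3KO was 1.38 lower than Irx4KO on the log2 scale (-2.27 to -0.49, adjusted p = 0.25), where 11.8% had no overlap. These differences rest on 6 to 26 estimated counts per library. By transcript, Irx3KO less Irx4KO was -0.32 ± 0.73 for Prph-201 and -3.25 ± 1.4 for Prph-202, neither called. DKO less Irx3KO was 1.24 ± 0.72 for Prph-201 and 1.71 ± 1.4 for Prph-202, also not called. Prph-202 had 0, 4 and 0 estimated counts in Irx3KO 1, 2 and 4. In the libraries labelled with homozygous Irx4 mutation Prph was 0.77 ± 0.29 higher (edgeR adjusted p = 0.32), with libraries that overlapped. The exact two-sided permutation p was 0.056, and 0.19 adjusted over the 10 tests. The step from Irx3KO to DKO exceeded that from dHet to Irx4KO by 1.13 ± 0.58 (adjusted p = 1), so a difference between these steps was not shown.

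Nefh, the chain that appears last in maturing axons, had wide ranges within the groups of set 2. It was at 0.274, 0.323 and 0.816 CPM in DKO, 0.59, 0.571 and 0.328 CPM in Irx3KO, 0.126, 0.139 and 0.349 CPM in Irx4KO and 0.659, 0 and 0.32 CPM in dHet, where 0 counts allow up to 0.0815 CPM. All groups of set 2 overlapped for Nefh, from 0 to 29 estimated counts per library. The widest differences, Irx3KO less Irx4KO at 1.28 ± 0.73 and DKO less Irx4KO at 1.2 ± 0.74, had adjusted p of 0.70 and 0.91. DKO less Irx4KO was 0.55 without DKO 4 and 1.8 without Irx4KO 4. Pooled by homozygous Irx3 label Nefh differed by 0.89 ± 0.51 (adjusted p = 0.75). In Ina the range was 0 to 7 counts in set 2, with 0 in DKO 2, Irx4KO 2, Irx4KO 4 and dHet 3.

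The higher Nefm level of DKO in set 1 was held by the full-length transcript. Nefm-201 was at 0.687, 2.15 and 1.25 CPM in WT and 9.53, 5.57 and 8.4 CPM in DKO of set 1. Nefm-202, the form that ends over Nefl, was at 0.216, 0.324 and 0.212 CPM in WT and 0.0645, 0.0763 and 0.159 CPM in DKO, lower in every DKO library. Its share of the Nefm counts was 17.2% ± 5.85 (SD, n = 3) in WT and 1.33% ± 0.603 in DKO of set 1. In set 2 the share was 13.7% ± 2.23 in Irx4KO, 8.17% ± 3.39 in Irx3KO, 7% ± 3.04 in dHet and 5.07% ± 2.7 in DKO. With 1.2 to 22.4 estimated counts per library, and reads shared with Nefl on the opposite strand, the Nefm-202 level is uncertain. In a fit of 49422 transcripts its log2 difference in DKO less WT was -1.23 ± 0.71 (edgeR adjusted p = 0.69). The share of all transcripts with no overlap in that direction was not computed. No group of set 2 differed in Nefm-202 at an adjusted p under 0.05. The largest difference there was 1.38 ± 0.70 for Irx4KO less dHet (edgeR adjusted p = 0.93).

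**Figure D3:**
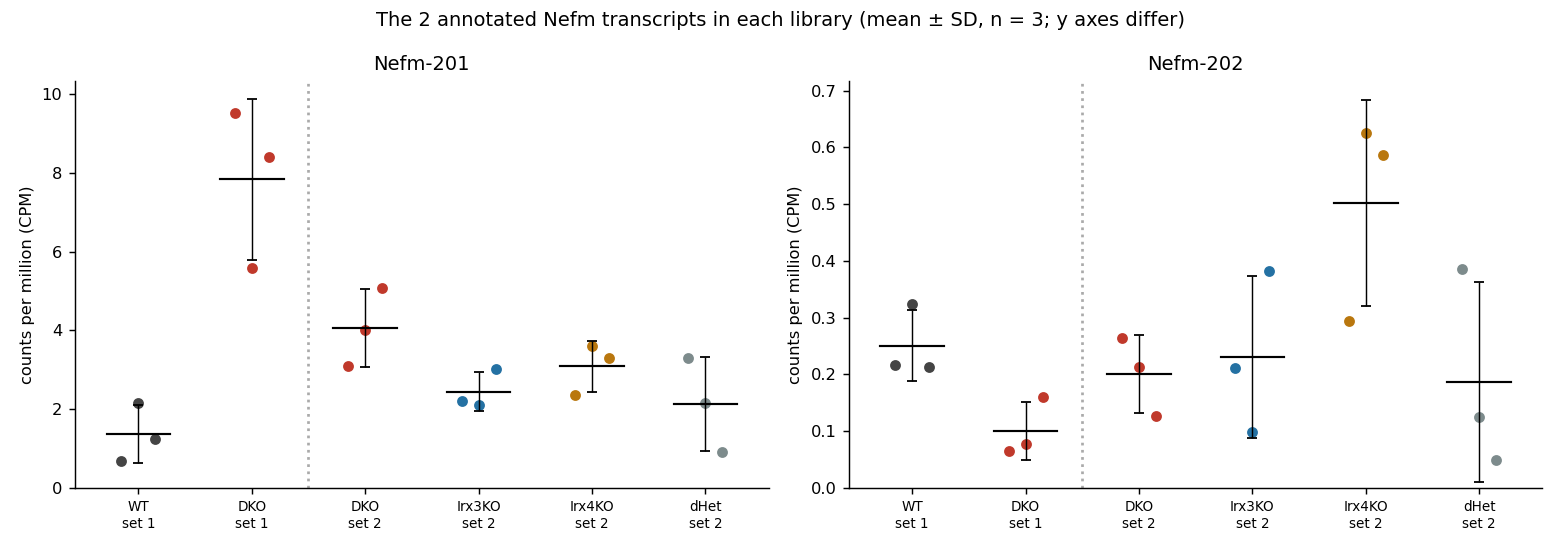
Level in CPM (y axis, different scales) of Nefm-201 and Nefm-202, which share their first 1232 bases, in each library by genotype and set (x axis), with mean and SD of 3. Nefm-201 is at 5.57 to 9.53 CPM in DKO of set 1 and at 0.687 to 2.15 CPM in WT, while Nefm-202 is at or under 0.625 CPM in all 18 libraries.

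The neighbours of the Nefl and Nefm pair were examined, since the pair lies side by side. Of the 5 protein-coding genes on each side, 7 passed the filter and none was called in DKO less WT. On the Nefm side Dock5, Gnrh1, Kctd9 and Cdca2 had log2 differences of -0.12 to 0.17, and Ebf2, an early B-cell factor family gene, had -1.2 ± 0.33 (adjusted p = 0.083). On the Nefl side Stc1, a secreted glycoprotein gene, had -0.08 ± 0.14 (adjusted p = 0.87), and Adamdec1, a secreted metalloprotease gene in the place after Adam7, had 3.29 ± 1.1 (adjusted p = 0.18).

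Adamdec1 split the libraries across genotypes. It had 0 counts in WT 1 and WT 3, 1 count in dHet 4, and 45 to 230 counts in the other 15 libraries, WT 2 among them with 46. The 3 libraries without it were also the 3 with the lowest Nefm (0.901, 0.965 and 1.46 CPM, against 2.21 CPM or more elsewhere) and the 3 with the lowest Nefl (3.79, 2.96 and 3.98 CPM). The next Nefl libraries followed closely at 4.05, 4.19 and 4.21 CPM, so that no gap set them apart for Nefl. The comparisons of Nefm with WT and with dHet thus include libraries at or near 0 for this neighbour. In WT 2, the only WT library with Adamdec1, Nefm was at 2.48 CPM and Nefl at 4.21 CPM. All 3 DKO libraries of set 1 had Adamdec1, at 80 to 230 counts, with Nefm at 5.65 to 9.6 CPM and Nefl at 8.65 to 10.5 CPM. Genotype and this split thus largely go together in set 1. The part of this split in the Nefm difference was not tested.

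**Figure D4:**
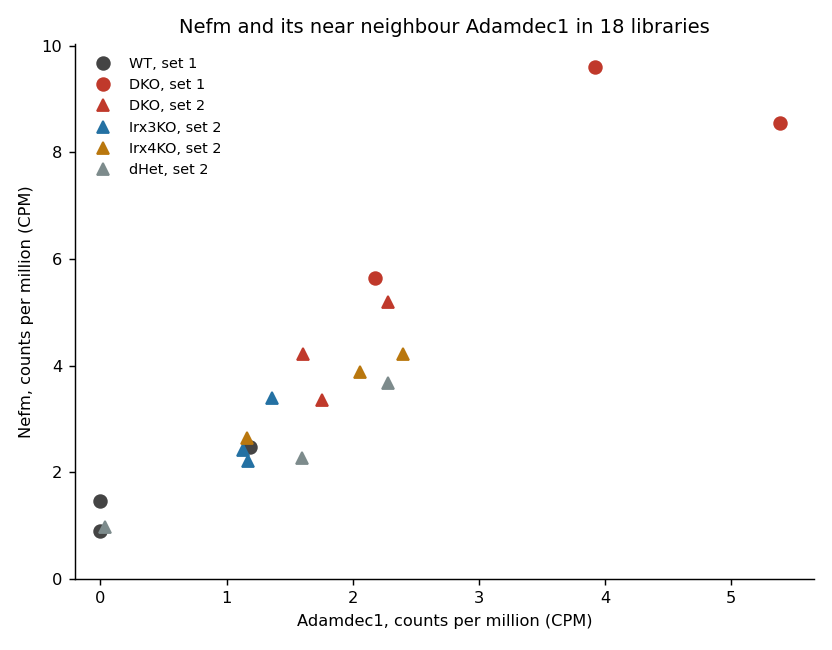
Level of Nefm (y axis, CPM) against that of Adamdec1 (x axis, CPM) in the 18 libraries, coloured by genotype, circles for set 1 and triangles for set 2. WT 1, WT 3 and dHet 4 sit at or near 0 Adamdec1 with Nefm at 0.901 to 1.46 CPM, and DKO 5 and DKO 10 sit highest on both axes.

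Which genes varied most like Nefl and Nefm over the 18 libraries was described after centring log2 CPM on each set's mean, among 12863 genes. These values include the DKO with WT difference of set 1 that chose the genes. For Nefl the highest Pearson r was with Nefm (0.907), followed by Selenok (0.854), Dusp14 (0.852), Mycbpap (0.849) and Med4 (0.845). For Nefm they were Adamdec1 (0.952), Nefl (0.907), the fast skeletal troponin T gene Tnnt3 (0.865), Nsrp1 (0.861) and Sik1 (0.853), the first resting in part on the 3 libraries at or near 0. The atrial myosin light chains Myl4 and Myl7 stood at rank 8 (0.828) and 13 (0.817) for Nefl. The remaining atrial markers ran from -0.447 (Kcna5) to 0.731 (Stard10). Cardiomyocyte markers ran from -0.751 (Pln, rank 12828) to 0.734 (Myh6), so heart muscle genes lay at both ends. The ranked genes of the neuronal cytoskeleton and pan-neuronal lists ran from -0.771 (Nsg2, rank 12840 of 12863) to 0.572 (Dpysl3) with Nefl. Between them lay, among others, Tubb3 (0.544), Stmn2 (0.351), Uchl1 (0.346), Elavl4 (0.007), Gap43 (-0.364) and Elavl3 (-0.707, rank 12766).

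Markers of neurons and glia gave 1 call in DKO less WT, where 1.44% of all genes were called, and that marker was lower. Fewer neurons and less RNA per neuron cannot be told apart in bulk tissue. Of 12 genes of the neuronal cytoskeleton 10 were tested and 0 were called in DKO less WT, with 7 of 10 above 0 and a median log2 difference of 0.10, where the median of all genes was 0.009. The neuronal tubulin Tubb3 was at 2.04 CPM in WT and 3.04 CPM in DKO (0.58 ± 0.56, adjusted p = 0.71), and the growth cone genes Stmn2 and Gap43 had differences of 0.04 and -0.08. The highest members, Dpysl3 (0.19 ± 0.061, adjusted p = 0.15), Map1b and Tubb2b, averaged 1040, 227 and 162 CPM over the 18 libraries. The summed level of the list did not overlap between DKO (1410 to 1530 CPM) and WT (1270 to 1370 CPM), but it did without Dpysl3 (363 to 408 and 348 to 388 CPM).

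Of 13 pan-neuronal markers 10 were tested, 0 were higher and 1 lower in DKO less WT. That one, Nsg2, which encodes a vesicular protein of neurons, was at 2.99 CPM in WT and 0.885 CPM in DKO of set 1 (-1.76 ± 0.35, edgeR adjusted p = 0.016, and 0.15 when set 1 was fitted alone), against the direction of Nefl. The list's sum was 65.3 to 84.8 CPM in DKO and 76.3 to 80.2 CPM in WT. Most of it was Uchl1, a ubiquitin hydrolase of neurons (48.9 CPM in WT and 52.4 CPM in DKO), ahead of Nsg1 and Elavl4. The mature neuron marker Rbfox3 averaged 0.0999 CPM and was at 0 in 2 libraries, Scg2 at 0 in 8 and Chga at 0 in 6.

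Of 11 autonomic markers 7 were tested and 0 were called in DKO less WT. Their sum was 12.3 to 19.5 CPM in DKO of set 1 and 14.7 to 21.8 CPM in WT, most of it Slc18a2, the vesicular monoamine transporter (10.6 and 12.1 CPM). The defining factor Phox2a averaged 0.309 CPM, Dbh 0.586 CPM and Th 0.185 CPM, while Chat was at 0 in 8 libraries. Of 6 sensory markers 4 were tested and 0 were called there, with sums of 7.41 to 9.63 CPM in DKO and 4.82 to 7.67 CPM in WT. Of 9 glia and neural crest markers 5 were tested and 0 called, with sums of 30.2 to 37.8 and 31.1 to 34.9 CPM. Erbb3 and Fabp7 were among its highest genes, while Sox10 was at 0 in 12 libraries and Foxd3 in 11. The part of neurons and glia in the Nefl and Nefm levels was not tested, and no defining neuron or glia gene except Nsg2 passed the test in DKO less WT.

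In set 2 the neuron and glia lists gave 1 gene. Over all genes 0.813% were called by homozygous Irx4 label, 0.379% in DKO less Irx3KO and 0.289% in Irx3KO less Irx4KO. Scn10a, a sodium channel of sensory neurons that has also been described in heart, was at 6.87 ± 0.701 CPM in DKO, 7.88 ± 0.685 CPM in Irx4KO, 4.79 ± 0.178 CPM in dHet and 3.57 ± 0.364 CPM in Irx3KO. It was 0.83 ± 0.13 higher in the libraries labelled with homozygous Irx4 mutation (edgeR adjusted p = 0.0054). It was also higher in DKO than in Irx3KO (0.95 ± 0.19, adjusted p = 0.035) and lower in Irx3KO than in Irx4KO (-1.14 ± 0.19, adjusted p = 0.011). Of 28 alternatives the DKO call was lost in 13 (adjusted p up to 0.2) and the Irx4KO call in 5 (up to 0.081). The list's remaining genes summed to 0.902 to 1.68 CPM in set 2, and none of them was called. None of the tested members of the neuronal cytoskeleton, pan-neuronal, autonomic or glia lists was called in any of the 8 comparisons of set 2.

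**Figure D5:**
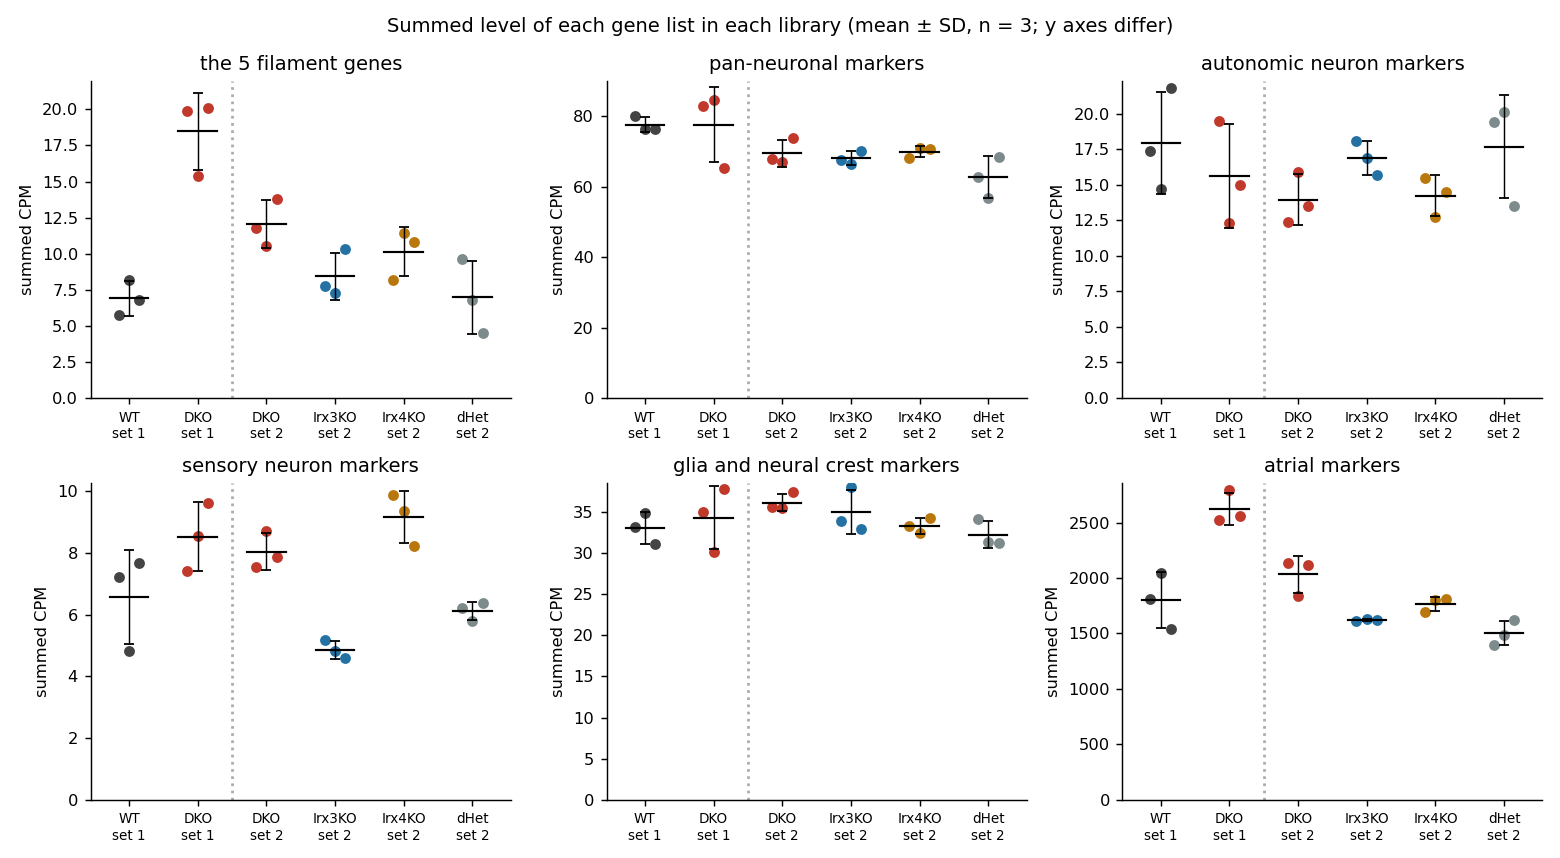
Summed CPM (y axis, different scales, starting at 0) of the 5 filament genes and of 5 marker lists in each library, by genotype and set (x axis), with mean and SD of 3. The pan-neuronal, autonomic, sensory and glia sums of DKO and WT overlap in set 1, while the filament genes (15.4 to 20.1 against 5.75 to 8.19 CPM) and the atrial markers (2520 to 2790 against 1540 to 2050 CPM) do not. The filament genes were chosen by this difference. Most of the atrial sum was the light chains Myl4 and Myl7, at 1410 and 408 CPM on average over the 18 libraries. Nr2f2, the next atrial marker, averaged 31.6 CPM. The neuronal cytoskeleton list, whose sums also did not overlap in set 1 unless Dpysl3 was left out, is not drawn.

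Some genes of heart muscle moved with Nefl and Nefm in set 1. Of 7 atrial markers 3 rose in DKO less WT and 0 fell: Stard10 (1.16 ± 0.18, edgeR adjusted p = 0.004), the atrial light chain Myl7 (345 to 662 CPM, 0.94 ± 0.16, adjusted p = 0.0091) and the embryonic and atrial light chain Myl4 (0.43 ± 0.082, adjusted p = 0.016). Over all genes 1.44% were called in DKO less WT, and 0.644% were called higher. In the homozygous Irx4 label comparison, where 0.813% of all genes were called, 1 of 7, Stard10, rose (0.67 ± 0.13, edgeR adjusted p = 0.02). The remaining atrial genes Sln, Nr2f1, Nr2f2 and Kcna5 had differences of 0.89, 0.21, 0.10 and -0.22 in DKO less WT and were not called. Whether atrial tissue differed between the dissections was not tested.

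In DKO less WT, where 1.44% of all genes were called, 1 of 11 cardiomyocyte markers rose and 1 fell. These were the alpha myosin heavy chain Myh6 (0.65 ± 0.12, edgeR adjusted p = 0.012) and phospholamban Pln, the inhibitor of the calcium pump (-0.43 ± 0.07, adjusted p = 0.0049). Pln also fell in the homozygous Irx4 label comparison (-0.30 ± 0.049, adjusted p = 0.0064), in DKO less Irx3KO (-0.40 ± 0.07, adjusted p = 0.016) and in DKO less dHet (-0.42 ± 0.07, adjusted p = 0.022). Of 13 conduction and trabecular markers, the transcription factor gene Tbx5 rose in DKO less WT (0.43 ± 0.079, adjusted p = 0.012). The guidance ligand gene Slit2 fell in the homozygous Irx4 label comparison (-0.73 ± 0.13, adjusted p = 0.018, up to 0.052 over the alternatives). It had -0.95 ± 0.18 in DKO less Irx3KO (adjusted p = 0.04), a call lost in 18 of 28 alternatives (adjusted p up to 0.21). The DKO less WT calls of Stard10, Myl7, Myl4, Myh6, Pln and Tbx5 were all lost when set 1 was fitted alone (adjusted p 0.17 to 0.24). Of the endothelial (5), epicardial and fibroblast (8), smooth muscle (4) and blood (6) markers, all tested, 0 were called in DKO less WT. The part of the myocardium in the Nefl and Nefm levels was not tested, as no file separates cells.

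The other intermediate filament genes, from desmin to the lamins, gave 1 call in DKO less WT among 13 tested of 14. Over all genes 1.44% were called there. Krt8, an epithelial keratin gene, was at 5.96 ± 0.364 CPM in WT and 12 ± 1.97 CPM in DKO of set 1 (1.01 ± 0.19, edgeR adjusted p = 0.015, and 0.077 when set 1 was fitted alone), and its usual partner Krt18 had 0.30 ± 0.12 (adjusted p = 0.28). Desmin (Des) had 0.16 ± 0.072, vimentin (Vim) 0.21 ± 0.3 and the progenitor filament nestin (Nes) 0.02 ± 0.098, all with adjusted p of 0.34 or more. In set 2 none of the 13 was called in any comparison.

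Genes whose products move, link or turn over neurofilaments gave no call in any of the 9 comparisons. Of the 12, all tested, 3 were above 0 in DKO less WT, with a median of -0.07. The neuronal kinesins Kif5a and Kif5c had -0.14 ± 0.22 and -0.47 ± 0.21 (adjusted p = 0.84 and 0.34), and Trim2, a ubiquitin ligase that acts on the light chain, had -0.39 ± 0.11 (adjusted p = 0.076). The 9 genes of the REST repressor complex, which holds neuronal genes silent in other cells, were all tested, 0 were called in any comparison, and their median was 0.02 in DKO less WT.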

How the data were processed

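PolyA RNA-seq of 18 libraries was used. The deposited values are estimated counts and TPM per transcript, made by the authors with kallisto 0.42.2 and build mm9, per the submitters' processing notes. Neither the transcript release nor a strand setting is named there. Estimated counts were summed per gene over 78030 of 88943 transcripts (GENCODE M21), which left 6.42% to 6.77% of counts out, and rounded. Genotype within set was fitted with edgeR 4.0.16 (quasi-likelihood, robust, TMM, filterByExpr, all 18 libraries in R 4.3.3), with Benjamini-Hochberg adjustment over 16607 genes and a threshold of 0.05. CPM use TMM factors, and intervals are at 95%. DESeq2 1.42.0 and other settings were alternatives. On simulated counts of 16387 genes for DKO less WT, 83 of 100 genes changed by a fold of 2 were called, 96 of 100 at a fold of 4, and 9 unchanged genes. The changed genes were drawn above a minimum mean count, and no difference between the sets was simulated. These rates therefore do not cover genes as scarce as Nefh and Ina. Of 18 pairs of libraries within a genotype and set, none agreed within sampling noise. Coding sequences were aligned with MAFFT 7.526.

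The genes, lists and tests were chosen with earlier results of these data known. Named genes are the 5 members, Irx3 and Irx4. From each list, up to 4 called members per comparison were added, and for neuron and glia lists the 4 highest. The 5 genes of highest r with Nefl and with Nefm complete them. Neighbours, transcripts, permutation tests and summed lists were added after the data were seen, as were other genes named beside them. Of 151 list entries 1 (Slc18a3) had no match. Some genes and sequences are not reported here.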

Additional observations from a re-analysis of the deposited data

Results flagged for a closer look

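Among the 6 DKO libraries, which span both sets, Nefh in DKO 4 stood apart at 0.816 CPM. Its gap to the next library was 0.747 of the whole range, above the 95% critical value of 0.625, and chance alone passes that value in about 1 in 20 groups. It rests on 29 estimated counts, against 10 to 16 in the other DKO libraries. Without DKO 4 the Nefh difference of DKO less dHet was -0.14 in place of 0.51 and that of DKO less Irx4KO 0.55 in place of 1.2, none of them called. The groups of 3 were not examined this way.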

How the results depend on the processing

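The number of the 5 genes called in DKO less WT was 2, where 1.44% of all genes were called. It was 1 without a set term or in the libraries of the same set only. It was 1 to 2 with each library left out in turn, 1 without WT 1 or WT 3. That comparison chose the genes, so these counts are a description and carry no test. In the other comparisons the number of the 5 genes called was 0 and became 1 in a few. Without a set term these were Prph in DKO less Irx3KO (1.58, adjusted p = 0.045), Nefl in DKO less dHet (1.08, adjusted p = 0.016) and Nefl in the homozygous Irx4 label comparison (0.64, adjusted p = 0.038). With DESeq2 they were Nefl in the last 2 (0.79 and 0.49). With each library left out the Irx4 count was 0 to 1. Some directions turned, and not only where the difference was small. Nefh in Irx4KO less dHet, for example, was -0.7 ± 0.76 in the main fit. Prph in DKO less Irx4KO was 0.2 without a set term. With each library left out, Prph ran from -0.24 to 0.12 there, -0.14 to 0.74 in DKO less dHet and -0.1 to 0.78 in Irx4KO less dHet. Nefh ran from -0.73 to 0.19 in DKO less Irx3KO, -0.14 to 1.72 in DKO less dHet, -0.02 to 1.8 in Irx3KO less dHet, -1.3 to 0.52 in Irx4KO less dHet and -0.71 to 0.22 by Irx4 label. Nefm ran from -0.16 to 0.69 in Irx3KO less dHet. The cause was not tested. Nefm in DKO less Irx4KO was 0.08 with a sex covariate and 0.77 without a set term. A filter of 1 CPM removed Nefh and Prph.

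Replicate numbers were shared across groups, but only 1 of 15 same-numbered pairs had a correlation over 0.1 (-0.29 to 0.12). Pairs with different numbers ran from -0.233 to 0.309, so no added likeness of same-numbered samples was seen. With 3 libraries in a group these values cannot exclude a pairing, and the labels name none. With a replicate block in set 2, 0 of the 5 genes were called, and Nefh in DKO less Irx3KO turned to 0.49.

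Genes called over all tested moved more. DKO less WT had 239, 16 in set 1 alone and 608 with DESeq2 (67 to 576 with a library left out). For the rest the range over other settings is given and, where a second follows, that with a library left out. DKO less Irx3KO had 63 (31 to 284, and 15 to 143), DKO less Irx4KO 4 (1 to 26), DKO less dHet 15 (11 to 317, and 4 to 102), Irx3KO less Irx4KO 48 (14 to 541, and 12 to 119), Irx3KO less dHet 1 (1 to 12) and Irx4KO less dHet 2 (1 to 32). The Irx4 label comparison had 135 (80 to 350, and 56 to 313) and the Irx3 label comparison 4 (2 to 56). Of the list genes called in DKO less WT, Krt8 lost its call in 4 alternatives, Myl4 in 4, Nsg2, Myl7 and Myh6 in 3 each, Stard10 and Tbx5 in 2 each and Pln in 1, each of them in set 1 alone, and some without WT 1 or WT 3. Pln lost its call in 4 alternatives in DKO less Irx3KO and 5 in DKO less dHet, Stard10 in 5 by Irx4 label and Slit2 in 2 by Irx4 label. Depth limits Nefh, Prph and Ina most.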
